A study of Mus musculus with 7 samples.

Results

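Amino acids enter and leave cells through membrane carriers of several solute carrier (Slc) families, and the genes described here are those of the Slc1, Slc3, Slc6, Slc7, Slc36, Slc38 and Slc43 families. They were chosen by gene symbol alone, and 60 of the 19938 genes with a single-gene probe set belong to them (7 of Slc1, 2 of Slc3, 18 of Slc6, 15 of Slc7, 4 of Slc36, 11 of Slc38 and 3 of Slc43). The rule took symbols that end in a number, so *Slc6a20a* and *Slc6a20b* of the Slc6 family are not among the 60 and stand in a list of related genes. Some members carry other substances, among them GABA, taurine, creatine, monoamines and nucleobases. Signals came from primary hepatocytes of C57BL/6J mice, 24 h after transfection with 1 µg of either a mimic of the mouse microRNA miR-709 (4 arrays, replicates A to D) or Cel-239b, a worm microRNA that served as control (3 arrays, replicates B to D). The study isolated hepatocytes with collagenase and a Percoll gradient, cultured them with serum, insulin and dexamethasone, and used the same lipid transfection for both groups. There were no untransfected cells, so each value is miR-709 relative to Cel-239b. The sources do not say whether the arrays of one treatment came from separate isolations, and p-values then measure only the spread between these arrays, which may be technical. The number of arrays limits the precision.

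The question was whether *Slc7a1*, the cationic amino acid carrier that the study listed among the genes lowered by miR-709, was alone in its fall or was joined or offset by other carriers. Since *Slc7a1* was listed because it fell on these arrays, its values here describe that fall and are no independent evidence of it. As background, cationic carriers of the Slc7 family bring arginine, lysine and ornithine into cells. The light chains of the same family work only when joined to a heavy chain of the Slc3 family, and most of these pairs exchange one amino acid for another. System A and system N carriers of the Slc38 family move alanine, serine and glutamine together with sodium, and in liver they feed gluconeogenesis, the urea cycle and glutamine metabolism. Some proteins of the Slc36 and Slc38 families sit in lysosomes. Hepatocytes hold little *Slc7a1* in the intact liver and take up cationic amino acids mainly by the product of *Slc7a2*.

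Of the 60 carrier genes, 2 fell, none rose and 58 were not called. The genes that fell were *Slc7a1* and *Slc7a5*, both of the Slc7 family. A gene was called at an adjusted p under 0.05 (limma with Benjamini-Hochberg adjustment over all 19938 genes). The share called lower was 3.33% of the carrier genes beside 1.47% of all genes tested, and the share called higher was 0% beside 1.81%. At an unadjusted p under 0.05 there were 13 carrier genes, 7 lower and 6 higher, which is 21.7% beside 15.0% of all genes. The arrays of the 2 treatments did not overlap for 10 carrier genes (5 below and 5 above the controls), or 16.7% beside 12.3%. The median log2 fold change, always given as miR-709 minus Cel-239b, was 0.02 over the carrier genes and 0.01 over all genes, with 33 carrier genes above 0 and 27 below.

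**Figure D1:**
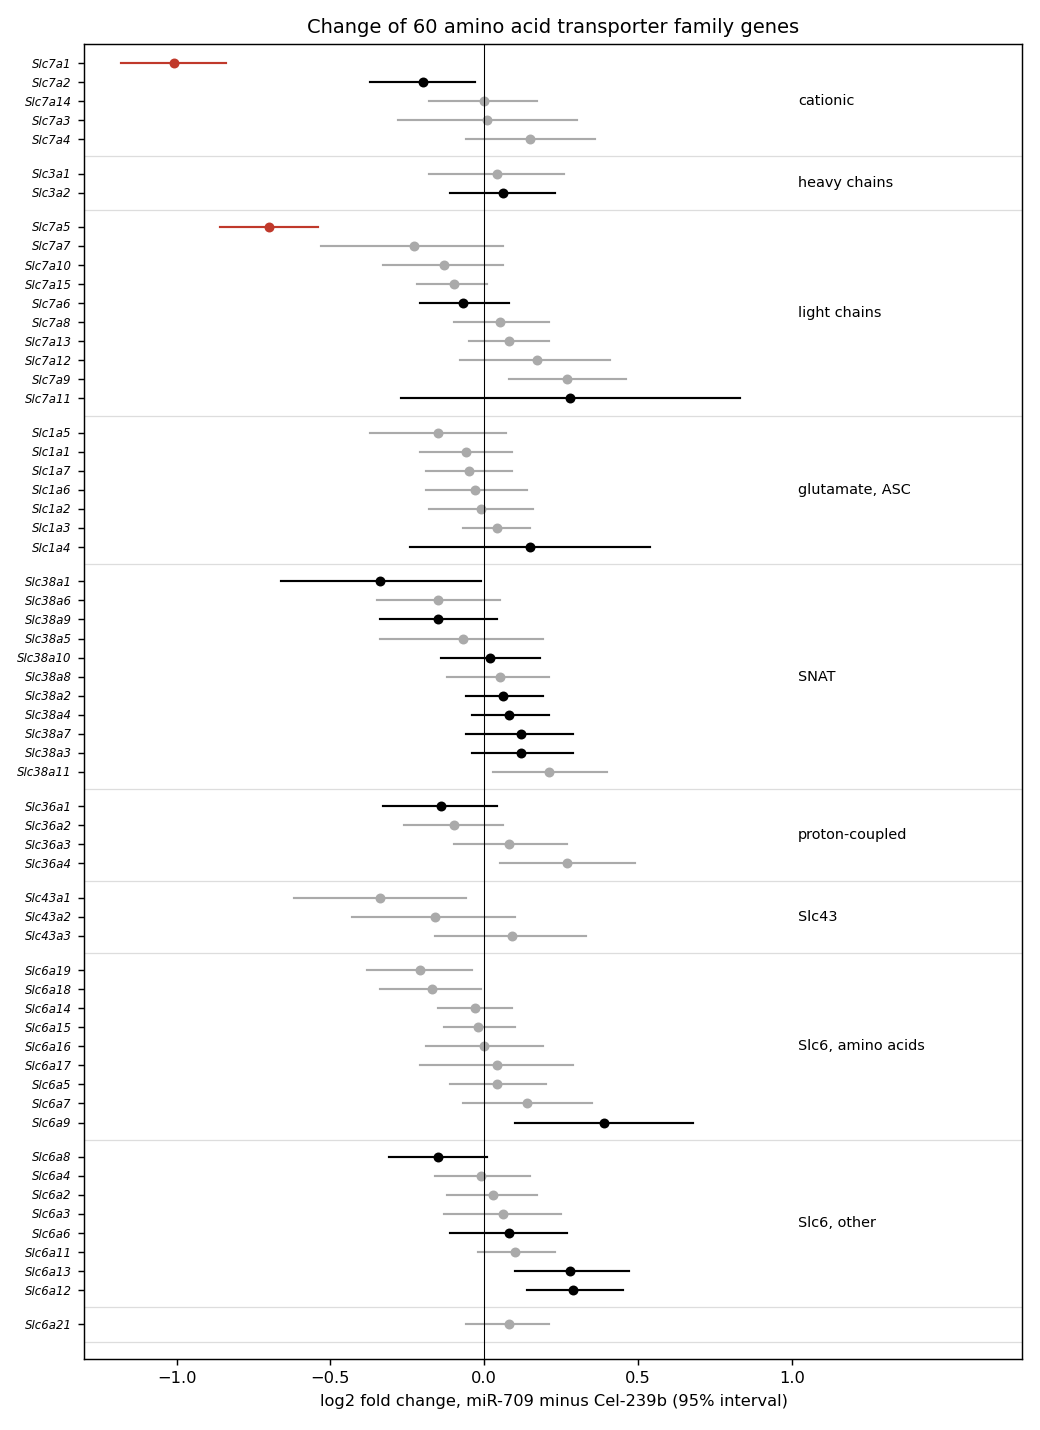
Log2 fold change (miR-709 minus Cel-239b, horizontal axis) of the 60 carrier genes with 95% intervals, grouped by role. Red marks the 2 genes with an adjusted p under 0.05, black the other genes whose mean log2 signal reached 7 and grey those below 7. *Slc7a1* at -1.01 and *Slc7a5* at -0.70 lie apart from the other 58, which range from -0.34 to 0.39.

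*Slc7a1* encodes CAT-1, the widely expressed carrier of arginine, lysine and ornithine. Its log2 signal was 8.09, 8.11 and 8.08 on Cel-239b arrays B, C and D, and 7.11, 6.96, 7.26 and 7.0 on miR-709 arrays A, B, C and D. Every miR-709 array was below every control, and the controls differed among themselves by much less than the distance between the groups. The control mean was 8.09 ± 0.02 (SD, n = 3) and the miR-709 mean 7.08 ± 0.13 (SD, n = 4). The log2 fold change was -1.01 (SE 0.08, 95% interval -1.18 to -0.84, limma adjusted p = 0.00019) or 2.02-fold lower. In total RNA of a culture, fewer cells that express a gene and less of its RNA per cell cannot be told apart.

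*Slc7a2* encodes CAT-2, the main cationic amino acid carrier of the liver. The log2 signal of *Slc7a2* was 7.98, 7.97 and 7.81 on the controls and 7.70, 7.86, 7.69 and 7.63 with miR-709. Replicate B of miR-709 lay within the range of the controls, so the groups overlapped. The log2 fold change was -0.20 (SE 0.07, 95% interval -0.37 to -0.03), which was past the unadjusted threshold in limma and not past it after adjustment (adjusted p = 0.233). That interval, not adjusted for the number of genes, holds neither an increase of *Slc7a2* nor a fall as large as that of *Slc7a1*. The other cationic carriers were *Slc7a3*, the CAT-3 carrier mainly of brain, with a difference of 0.01 (95% interval -0.28 to 0.30), and the relatives *Slc7a4* (0.15) and *Slc7a14* (0.00), none of which was called. No gene of the cationic group had a lower bound above 0.

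**Figure D2:**
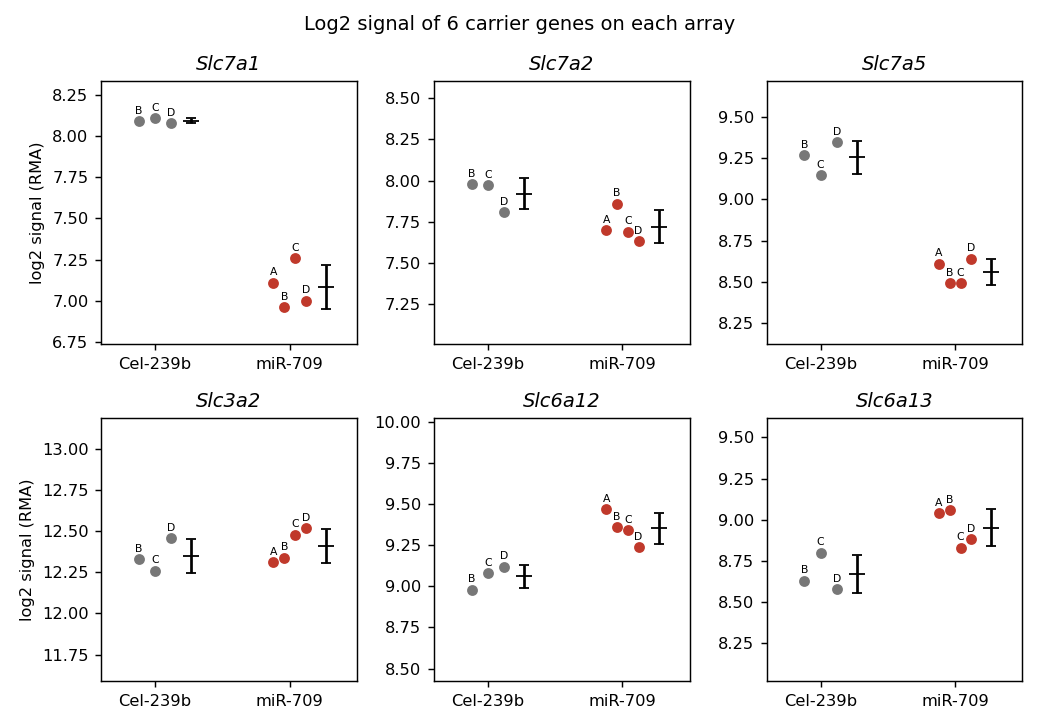
Log2 signal (RMA, vertical axis, the same span in each panel) of 6 carrier genes on each array, with replicate letters, and the mean with SD beside the points. *Slc7a1* and *Slc7a5* were lower on all 4 miR-709 arrays, *Slc7a2* and *Slc3a2* overlapped the controls, and *Slc6a12* and *Slc6a13* were above the controls on all 4 arrays without an adjusted p under 0.05.

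*Slc7a5* encodes LAT1, a light chain that exchanges large neutral amino acids such as leucine and tyrosine. Its log2 signal was 9.27, 9.15 and 9.35 on the controls and 8.61, 8.49, 8.49 and 8.64 with miR-709. All miR-709 arrays were below all controls, with a similar spread in both groups. The control mean was 9.26 ± 0.10 (SD, n = 3) and the miR-709 mean 8.56 ± 0.08 (SD, n = 4). The log2 fold change was -0.70 (SE 0.07, 95% interval -0.86 to -0.54, limma adjusted p = 0.00074) or 1.62-fold lower. *Slc7a1* and *Slc7a5* thus fell together on each of the 4 miR-709 arrays.

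*Slc3a2* encodes 4F2hc or CD98, the heavy chain that LAT1 and several other light chains need to reach the cell surface. It did not follow *Slc7a5*. The log2 signal of *Slc3a2* was 12.33, 12.26 and 12.46 on the controls and 12.31, 12.34, 12.48 and 12.52 with miR-709, and the groups overlapped. The difference was 0.06 (SE 0.08, 95% interval -0.11 to 0.23, limma adjusted p = 0.766). The second heavy chain gene, *Slc3a1*, which encodes the rBAT partner of the cystine exchanger, differed by 0.04 (95% interval -0.18 to 0.26).

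Of the other 9 light chains, 0 were called. *Slc7a6* encodes y+LAT2, which exchanges cationic amino acids such as arginine for neutral ones. Signals of *Slc7a6* on the log2 scale were 7.58, 7.55 and 7.75 on the controls and 7.55, 7.58, 7.53 and 7.58 with miR-709, a difference of -0.07 (95% interval -0.21 to 0.08, limma adjusted p = 0.689). Its close relative *Slc7a7*, which encodes y+LAT1, differed by -0.23 (95% interval -0.53 to 0.06). Neither exchanger of cationic amino acids was higher than its controls beyond the error.

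*Slc7a9* encodes the light chain that exchanges cystine and cationic amino acids, and it had log2 signals of 3.69, 3.88 and 4.04 on the controls and 4.07, 4.16, 4.12 and 4.21 with miR-709. All miR-709 arrays were above the controls, some of them narrowly. The log2 fold change of 0.27 (SE 0.08, 95% interval 0.08 to 0.46) did not pass (limma adjusted p = 0.150), and this probe set was among the 32 carrier genes with a mean log2 signal under 5, below the array medians of 5.04 to 5.07.

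*Slc7a11* encodes xCT, the light chain that takes up cystine in exchange for glutamate. It is one of several carriers known to be induced through an amino acid response element, a short site bound by ATF4 when amino acids run short. Sequence from 250 bases before to 50 bases after the start of carrier genes was searched for the letters TGATGNAA. TTNCATCA is the same site on the other strand. The Slc1 and Slc7 families are shown because *Slc7a11* and *Slc1a4* varied alike among the arrays, a choice made after seeing the data. The sequences below are the matches in these families. They are RefSeq sequence of build GRCm38.p6, 5′ to 3′ on the strand of the gene, with the matched letters in capitals.
*Slc7a11* (chr3:50443642-50443671, minus strand): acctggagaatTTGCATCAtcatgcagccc
*Slc7a11* (chr3:50443661-50443690, minus strand): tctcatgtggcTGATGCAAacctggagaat
*Slc1a4* (chr11:20332699-20332728, minus strand): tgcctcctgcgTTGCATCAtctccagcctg
*Slc7a7* (chr14:54417927-54417956, minus strand): gacctagaagcTGATGCAAcagcttccccg
*Slc7a7* (chr14:54418067-54418096, minus strand): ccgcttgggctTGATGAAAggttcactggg

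In all, 43 carrier genes had such a window, and 4 of them held the letters, the fourth being *Slc6a21*. By window this was 5 of 64 (7.81%), beside 1304 of 32851 windows (3.97%) in the whole table. The 2 windows of *Slc7a1* did not hold these letters. Sequence further than 50 bases into a gene was not searched, so a site there would be missed. *Slc7a5*, *Slc7a2*, *Slc7a3*, *Slc7a4* and *Slc1a5* were among the carrier genes for which no window was searched. A match is a description of the letters and does not show that a factor binds there. On miR-709 arrays A to D, *Slc7a7* minus its control mean was -0.08, -0.24, -0.43 and -0.20. The mean of 28 other measured ATF4 response genes was -0.06, -0.08, 0.00 and -0.08 from the controls on these arrays. *Slc6a9* was highest on C and D, and its window did not hold the letters. Whether ATF4 had a part in the values of *Slc7a11* and *Slc1a4*, given next, was not tested.

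The log2 signal of *Slc7a11* was 9.87, 9.68 and 9.88 on the controls and 9.54, 9.71, 10.47 and 10.63 on miR-709 arrays A to D. Arrays C and D were above every control, whereas A and B were not. The difference of 0.28 (SE 0.24, 95% interval -0.27 to 0.83, limma adjusted p = 0.661) was therefore within the spread among the miR-709 arrays. *Slc1a4*, which encodes ASCT1, an exchanger of alanine, serine and cysteine, was at 8.58, 8.79 and 8.89 on the controls and at 8.63, 8.58, 9.08 and 9.33 with miR-709. Here too only C and D were above every control, and the difference was 0.15 (SE 0.17, 95% interval -0.24 to 0.54, limma adjusted p = 0.748).

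*Slc38a1* encodes SNAT1, a system A carrier of small neutral amino acids, and had the opposite order. Its log2 signal was 7.52, 7.56 and 7.52 on the controls and 7.57, 7.33, 7.01 and 6.88 with miR-709, so that A was level with the controls and C and D were lowest. The difference of -0.34 (SE 0.14, 95% interval -0.66 to -0.01) did not pass (limma adjusted p = 0.316). A second, dimmer probe set of *Slc38a1* gave -0.42 (SE 0.19).

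The same arrays C and D stood apart in 19 measured interferon response genes, whose mean log2 signal was 0.89 and 0.88 above the control mean on C and D, and 0.10 and 0.04 below it on A and B. No interferon gene was called between the treatments. The mean of the bile duct cell markers moved with these arrays as well. It was 0.41 and 0.42 below the controls on C and D and 0.16 and 0.14 below on A and B. *Krt19*, which the study listed as lowered, had the largest differences (-0.61, -0.85, -1.67 and -1.79 on A to D). *Sox9* and *Prom1* were also lowest on C and D. *Krt7* was not (-0.42, -0.18, -0.41 and -0.18), and on C and D *Epcam* (0.00 and -0.06) and *Muc1* (0.02 and 0.10) lay near the controls. The part of the interferon genes or of these markers in the values of *Slc7a11*, *Slc1a4* and *Slc38a1* was not tested. Without arrays C and D, a choice made after seeing the data, the difference was -0.18 for *Slc7a11*, -0.15 for *Slc1a4* and -0.08 for *Slc38a1*, with 0 of the 3 called. *Slc7a1* (-1.06, limma adjusted p = 0.0101) and *Slc7a5* (-0.71, limma adjusted p = 0.0320) were as low without these arrays, and the counts of carrier genes called were again 2 lower and 0 higher.

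**Figure D3:**
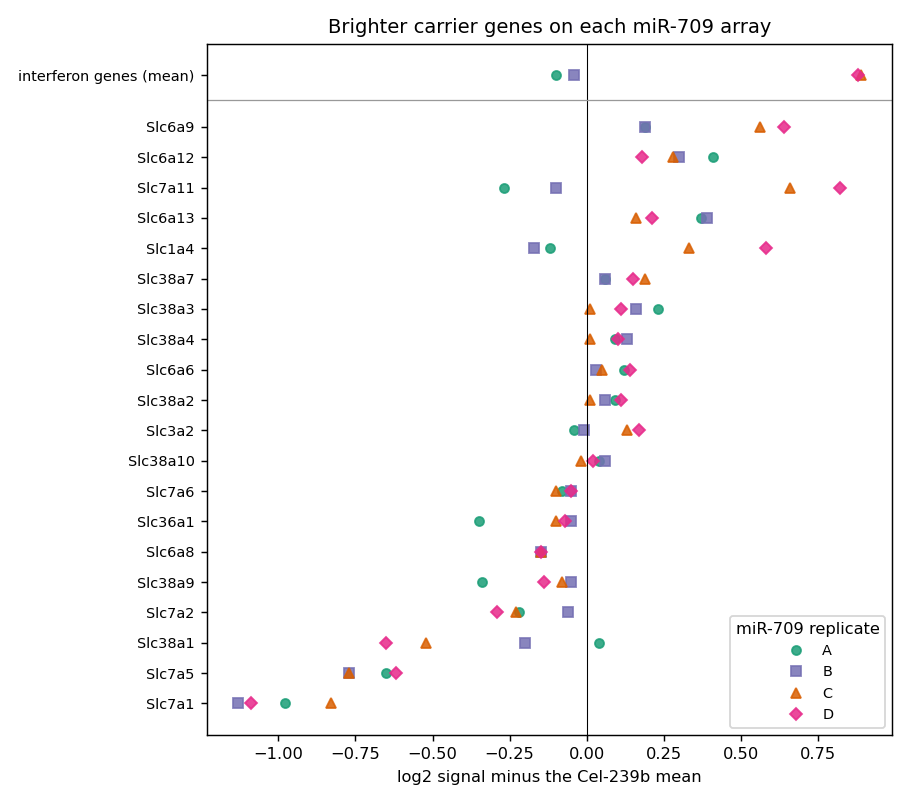
Log2 signal minus the Cel-239b mean (horizontal axis) on each miR-709 array for the 20 carrier genes whose mean log2 signal reached 7, with the mean of 19 interferon response genes on the top line. All 4 arrays lie left of 0 for *Slc7a1* and *Slc7a5*, whereas *Slc7a11*, *Slc1a4* and *Slc38a1* differ between arrays A and B and arrays C and D, which carry interferon means of 0.89 and 0.88.

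None of the 11 Slc38 genes was called. *Slc38a2* encodes SNAT2, the system A carrier that cells make more of when amino acids are scarce. Signals of *Slc38a2* on the log2 scale were 10.88, 10.84 and 10.84 on the controls and 10.94, 10.91, 10.86 and 10.96 with miR-709, a difference of 0.06 (95% interval -0.06 to 0.19, limma adjusted p = 0.644). The intervals of the liver carriers *Slc38a3*, which encodes the system N glutamine carrier SNAT3, and *Slc38a4*, which encodes the system A carrier SNAT4, were also short.

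*Slc38a3* was at 9.73, 9.85 and 9.92 on the controls and 10.06, 9.99, 9.84 and 9.94 with miR-709, a difference of 0.12 (95% interval -0.04 to 0.29). *Slc38a4* was at 11.50, 11.50 and 11.47 on the controls and 11.58, 11.62, 11.50 and 11.59 with miR-709, a difference of 0.08 (95% interval -0.04 to 0.21). For both genes the upper bound of the increase was below 0.30 on the log2 scale. *Slc38a10*, an orphan of the family, differed by 0.02 (95% interval -0.14 to 0.18), and its sign was negative at -0.01 after a further quantile or cyclic loess normalization. *Slc38a11*, another orphan with a dim probe set, was at 3.22, 3.20 and 3.17 on the controls and 3.28, 3.61, 3.43 and 3.32 with miR-709, above the controls on all 4 arrays but not called (0.21, 95% interval 0.03 to 0.40, limma adjusted p = 0.251).

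Carriers of the lysosome were measured too. *Slc38a9* encodes a lysosomal arginine sensor that acts upstream of the growth regulator mTORC1, and was at 7.67, 7.51 and 7.47 on the controls and 7.21, 7.50, 7.47 and 7.41 with miR-709. Replicate A was lowest, and the difference was -0.15 (95% interval -0.34 to 0.04, limma adjusted p = 0.447). *Slc38a7*, which encodes the lysosomal glutamine exporter SNAT7, differed by 0.12 (95% interval -0.06 to 0.29).

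*Slc36a1* encodes PAT1, which exports small amino acids from lysosomes with protons, and was at 7.31, 7.17 and 7.24 on the controls and 6.89, 7.19, 7.14 and 7.17 with miR-709. Replicate A again was lowest, and the groups overlapped (-0.14, 95% interval -0.33 to 0.04, limma adjusted p = 0.472). *Slc36a4*, which encodes the proline and tryptophan carrier PAT4, was at 6.69, 6.47 and 6.51 on the controls and 6.99, 6.95, 6.66 and 6.70 with miR-709. Replicates A, B and, narrowly, D were above the controls and C lay among them, and the difference of 0.27 (SE 0.10, 95% interval 0.05 to 0.49) did not pass (limma adjusted p = 0.227).

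The largest positive differences, 0.39 and 0.29, were in the Slc6 family, and neither passed the adjustment. *Slc6a12* encodes BGT-1, the betaine and GABA carrier of liver and kidney. Its log2 signal was 8.98, 9.08 and 9.12 on the controls and 9.47, 9.36, 9.34 and 9.24 with miR-709, above the controls on 4 of 4 arrays. The control mean of 9.06 ± 0.07 (SD, n = 3) and the miR-709 mean of 9.35 ± 0.09 (SD, n = 4) differed by 0.29 (SE 0.07, 95% interval 0.14 to 0.45, limma adjusted p = 0.0593). The call of *Slc6a12* depended on the setting, and its adjusted p was 0.0430 with limma-trend and 0.0316 when only genes whose mean log2 signal reached 5 were tested.

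*Slc6a13* encodes a GABA and taurine carrier of liver and kidney and is the direct neighbour of *Slc6a12* on chromosome 6. It was at 8.63, 8.80 and 8.58 on the controls and 9.04, 9.06, 8.83 and 8.88 with miR-709. All miR-709 arrays were above all controls, C only narrowly, and the difference was 0.28 (SE 0.08, 95% interval 0.10 to 0.47, limma adjusted p = 0.121). Members lay next to each other in 5 places of the genome, and the other runs were *Slc36a3*, *Slc36a2* and *Slc36a1* on chromosome 11, *Slc6a18* and *Slc6a19* on chromosome 13, *Slc38a1*, *Slc38a2* and *Slc38a4* on chromosome 15, and *Slc6a16* and *Slc6a21* on chromosome 7. On chromosome 15 the neighbours did not share a difference, at -0.34 for *Slc38a1*, 0.06 for *Slc38a2* and 0.08 for *Slc38a4*.

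*Slc6a9* encodes GlyT1, a glycine carrier. Signals of *Slc6a9* on the log2 scale were 9.51, 9.61 and 9.84 on the controls and 9.84, 9.84, 10.21 and 10.29 with miR-709. C and D were highest, and A and B were level with control D. The difference of 0.39 (SE 0.13, 95% interval 0.10 to 0.68), which is 1.31-fold, did not pass (limma adjusted p = 0.180), and without arrays C and D it was 0.19.

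*Slc6a6*, the taurine carrier, was at 10.47, 10.13 and 10.22 on the controls and 10.39, 10.30, 10.32 and 10.41 with miR-709, with overlap throughout (0.08, limma adjusted p = 0.710). *Slc6a8*, the creatine carrier, was at 8.10, 7.84 and 7.85 on the controls and at 7.78 on each of the 4 miR-709 arrays. These were below all controls, but control B stood above the other controls, and the difference of -0.15 (95% interval -0.31 to 0.01) did not pass (limma adjusted p = 0.376). *Slc6a18* and *Slc6a19*, neutral amino acid carriers known from kidney and gut, had dim probe sets with means under 5 and differed by -0.17 (limma adjusted p = 0.299) and -0.21 (limma adjusted p = 0.217).

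*Slc43a1* encodes LAT3, a facilitator of branched-chain amino acids, which are also carried by LAT1. The log2 signal of *Slc43a1* was 5.0, 5.29 and 5.35 on the controls and 4.59, 5.07, 4.83 and 4.99 with miR-709. Replicate B lay within the range of the controls, and A, C and D were below it, D only narrowly. The difference was -0.34 (SE 0.12, 95% interval -0.62 to -0.06, limma adjusted p = 0.220). The related *Slc43a2* differed by -0.16 (95% interval -0.43 to 0.10), and *Slc43a3*, which carries nucleobases and not amino acids, by 0.09.

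The intervals bound the RNA change of other carrier genes 1 gene at a time, and were not adjusted for the number of genes. They do not bound an offset of the fall of *Slc7a1* and *Slc7a5* by the carriers together. Some of these genes, such as *Slc6a6* and *Slc6a8*, carry neither cationic nor large neutral amino acids. The 40 carrier genes with a mean log2 signal below 7, *Slc7a9* among them, are not in the counts that follow. Of the 18 other carrier genes whose mean log2 signal reached 7, differences ranged from -0.34 to 0.39 with a median of 0.07, beside 0.04 over all genes at that level of signal. The upper bound was under 0.5 for 15 of them, and at or over 0.5 for *Slc7a11*, *Slc6a9* and *Slc1a4*, whose arrays C and D were high. The lower bound was above -0.5 for 17, and below it for *Slc38a1*. These are bounds on RNA, and signals of different probe sets cannot be set against each other, so they do not give the share of transport by each carrier.

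A further 34 carrier genes had no unadjusted p under 0.05 and mean log2 signals from 2.58 to 6.78, with 28 of them under 5. Their differences ranged from -0.23 to 0.17 with a median of 0.01, and the lowest adjusted p among them was 0.4. They include the glutamate carriers *Slc1a1*, *Slc1a2*, *Slc1a3*, *Slc1a6* and *Slc1a7*, the glutamine carrier *Slc1a5* (-0.15, 95% interval -0.37 to 0.07), the carrier of neutral and cationic amino acids *Slc6a14* (-0.03) and the monoamine carriers *Slc6a2*, *Slc6a3* and *Slc6a4*. For the 28 dimmest, whose signals lie under the array medians, a change may not be detectable.

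**Figure D4:**
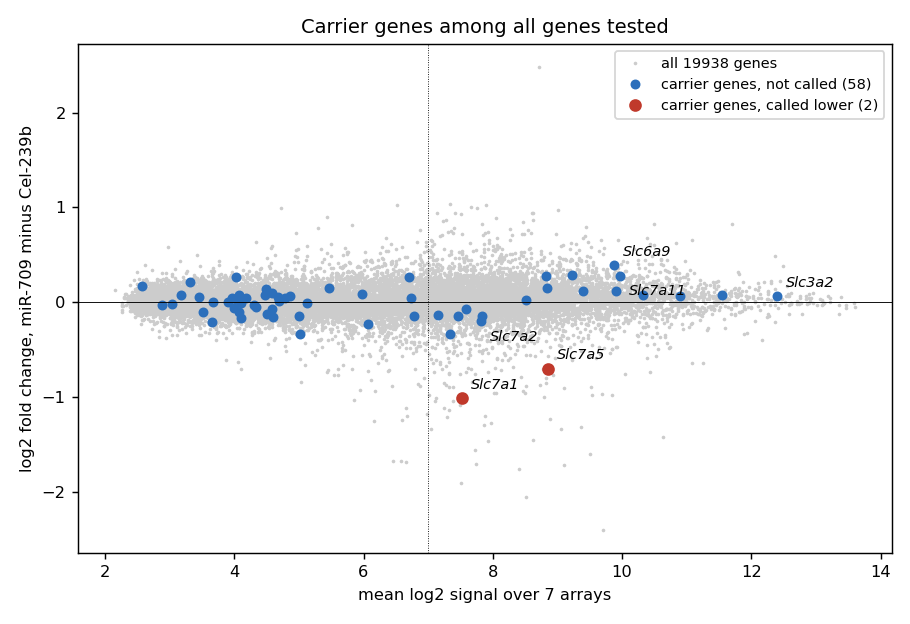
Log2 fold change (miR-709 minus Cel-239b, vertical axis) against the mean log2 signal over 7 arrays (horizontal axis) for all 19938 genes in grey and the 60 carrier genes in colour, with a dotted line at a signal of 7. *Slc7a1* and *Slc7a5* are the 2 carrier genes called, and the 40 carrier genes left of the dotted line stay between -0.34 and 0.27.

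Genes around amino acid transport were examined as lists. A list of 22 genes held amino acid carriers outside the rule, among them *Slc6a20a* (0.07) and *Slc6a20b* (0.08) of the Slc6 family, and *Cltrn* (0.10), which is a partner protein of carriers and not itself one. Of these 22 genes, 0 were called in either direction by limma. At an unadjusted p under 0.05 there were 6, with 5 higher and 1 lower, beside 15.0% of all genes (1825 higher and 1162 lower), and the median difference of the list was 0.07. The examples furthest from 0 were mitochondrial carriers, *Slc25a38*, which brings in glycine for haem synthesis (0.33, limma adjusted p = 0.128), *Slc25a44*, a carrier of branched-chain amino acids (0.30, limma adjusted p = 0.124), and *Slc25a12*, an aspartate and glutamate carrier (0.23, limma adjusted p = 0.237). The lysosomal exporter of cationic amino acids *Slc66a1* differed by 0.17 (limma adjusted p = 0.302).

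Of 23 measured enzymes of arginine, ornithine, lysine and polyamine metabolism, 1 fell and none rose, beside 1.47% and 1.81% of all genes, with a median of 0.01. Of the 23, 14 had a mean log2 signal of at least 7, a level at which 208 of 6522 genes fell and 275 rose. The one that fell was *Aass*, the first enzyme of lysine breakdown, with 9.28 ± 0.04 (SD, n = 3) on the controls against 8.87 ± 0.12 (SD, n = 4) with miR-709 (log2 fold change -0.40, SE 0.07, limma adjusted p = 0.0185). Its substrate is one of the amino acids carried by CAT-1, and a link to the fall of *Slc7a1* was not tested. *Arg1*, the arginase of the urea cycle, was above the controls on all 4 arrays without passing (0.24, limma adjusted p = 0.304). *Ddah1*, which breaks down methylated arginine, was below the controls on all 4 arrays without passing (-0.17, limma adjusted p = 0.277).

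Of 12 measured enzymes of glutamine and glutamate metabolism, 2 fell and 2 rose, beside 1.47% and 1.81% of all genes. All 12 had a mean log2 signal of at least 7, a level at which 208 of 6522 genes fell and 275 rose. *Cad*, the enzyme that starts pyrimidine synthesis from glutamine, fell by 0.38 (limma adjusted p = 0.0227) and *Gfpt1*, which starts hexosamine synthesis from glutamine, fell by 0.32 (limma adjusted p = 0.0314). *Gpt*, an alanine aminotransferase, rose by 0.32 (limma adjusted p = 0.0308) and *Ppat*, which starts purine synthesis from glutamine, rose by 0.44 (limma adjusted p = 0.0347). The list thus had calls in both directions, and its median was 0.07. No call of these enzymes or of *Aass* held in every set of arrays with one left out.

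*Slc7a5*, *Slc7a11*, *Slc1a4*, *Slc38a2* and *Slc3a2* are examples, not a full list, of carrier genes that ATF4 raises in the amino acid response. Of 28 other measured genes of that response, 2 fell and none rose, beside 1.47% and 1.81% of all genes, with 18 below 0, 10 above 0 and a median of -0.05. Of the 28, 23 had a mean log2 signal of at least 7, a level at which 208 of 6522 genes fell and 275 rose. The 2 calls became 1 without control C or without control D, and 0 by the methods' t-test or without miR-709 arrays C and D. *Vldlr*, a lipoprotein receptor, was at 9.31 ± 0.16 (SD, n = 3) on the controls against 8.45 ± 0.23 (SD, n = 4) with miR-709 (log2 fold change -0.85, SE 0.13, limma adjusted p = 0.00629). *Aldh1l2*, a mitochondrial folate enzyme, was at 6.60 ± 0.10 (SD, n = 3) on the controls against 6.19 ± 0.08 (SD, n = 4) with miR-709 (log2 fold change -0.41, SE 0.07, limma adjusted p = 0.0133). *Ddit3*, a stress transcription factor, and *Sesn2*, a leucine sensor, differed in opposite directions without passing (0.34, limma adjusted p = 0.144, and -0.30, limma adjusted p = 0.157).

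**Figure D5:**
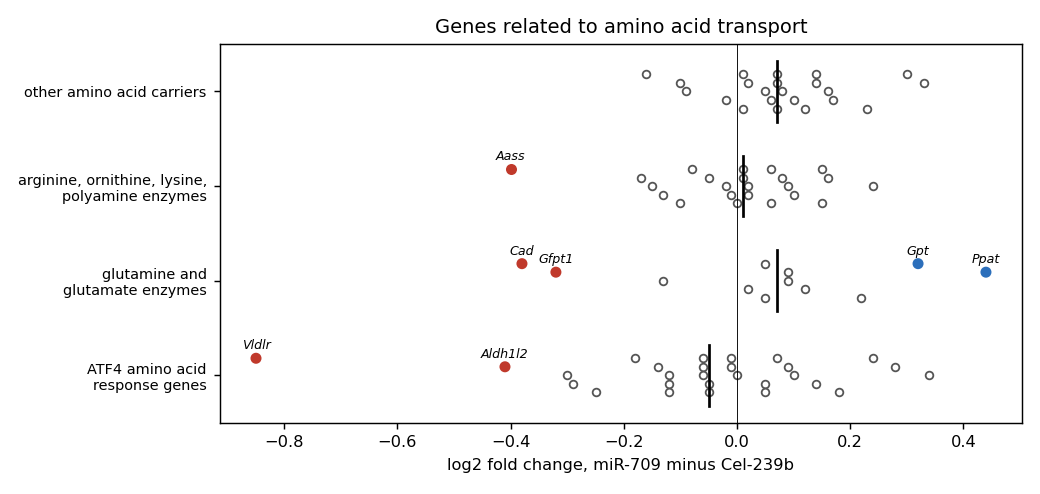
Log2 fold change (miR-709 minus Cel-239b, horizontal axis) of each measured gene in 4 lists, with open points for genes not called, filled points for genes with an adjusted p under 0.05 (red lower, blue higher) and a bar at the median of each list. Calls are *Aass*, *Cad*, *Gfpt1*, *Gpt*, *Ppat*, *Vldlr* and *Aldh1l2*, and the medians lie between -0.05 and 0.07.

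The cells carried hepatocyte markers at mean log2 signals from 9.29 to 13.47. Of the 11 measured, *Cps1* (0.68, limma adjusted p = 0.0136), *Tat* (0.61, limma adjusted p = 0.00763) and *Hnf4a* (0.57, limma adjusted p = 0.00104) were called higher, and the median of the list was 0.06, with *Alb* at -0.03 and *Ttr* at 0.01. Its means per array were 11.56 to 11.66 on the controls and 11.75 to 11.86 with miR-709. Of 13 markers of stellate cells and myofibroblasts, *Acta2* (-1.34, limma adjusted p = 0.0005) and *Vim* (-0.40, limma adjusted p = 0.0123) were called lower, and the median was -0.02, with the collagen genes *Col1a2* at -0.07 and *Col3a1* at -0.01. The means of that list were 5.45 to 5.51 on the controls and 5.30 to 5.36 with miR-709. Its mean log2 fold change was -0.15, and *Acta2* and *Vim* had the largest differences in it. The study listed *Acta2*, like *Krt19*, among the genes lowered on these arrays, so its values are no independent evidence of a fall. Of 7 bile duct markers *Krt19* (-1.23, limma adjusted p = 0.0377) was called lower, with list means of 5.53 to 5.63 on the controls and 5.15 to 5.43 with miR-709. Over all genes tested, 1.47% were called lower and 1.81% higher. A mean log2 signal of at least 7 was reached by all 11 hepatocyte, 2 stellate cell and 2 bile duct markers. At that level 208 of 6522 genes fell and 275 rose. With 1 array left out, the counts of markers called were 2 to 4 for hepatocyte, 1 to 2 for stellate cell and 0 to 1 for bile duct markers. None of 11 sinusoidal endothelial and 12 Kupffer cell and leukocyte markers was called, and of these only *Cd68* had a mean log2 signal above 7. The part of these marker differences in the fall of *Slc7a1* and *Slc7a5* was not tested.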

How the data were processed

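Total RNA of transfected hepatocytes was hybridised to Affymetrix Mouse Gene 1.0 ST arrays. The authors deposited a log2 signal for each probe set, made with RMA in Partek per the labels, in versions not given in the sources used here. Array medians were 5.04 to 5.07, and arrays correlated at 0.995 to 0.998. Of 28853 probe sets, 21789 had 1 gene symbol, 1621 several and 5443 none, and 21698 matched a current gene number. The brightest probe set of each of 19938 genes was kept, as for *Slc38a1* and *Slc38a9*, which had 2 each.

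All genes were fitted together in limma 3.58.1 (R 4.3.3, 2 groups, moderated variances, two-sided, Benjamini-Hochberg adjustment). The model was tested on simulated data. The median residual SD was 0.10 and the median SE of a difference 0.08. Named were *Slc7a1*, *Slc7a2*, carrier genes with an adjusted or unadjusted p under 0.05 or a mean log2 signal of at least 7, and up to 4 genes of each list, called ones first. The other carrier genes, chosen for their role, were named after their values were seen. Members and lists were chosen with earlier results of these data known. The sources do not say whether replicate letters pair the arrays, and the main fit did not use them. Alternatives were limma-trend, the one-way ANOVA of the methods (for 2 groups called the methods' t-test), other probe set rules, signal filters, further normalizations, array weights, the letter as a block and arrays left out.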

Additional observations from a re-analysis of the deposited data

Results flagged for a closer look

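On 2 carrier genes, 1 of the 4 miR-709 arrays lay far from the others by Dixon's criterion, in which the gap to the nearest array divided by the range exceeds the 95% critical value for 4 arrays. *Slc36a1* was at 6.89 on replicate A, where the nearest array was at 7.14, a gap of 0.833 of the range. *Slc6a18* was at 3.91 on replicate B, where the nearest was at 4.06, also 0.833 of the range. The criterion was applied to the 26 carrier genes named by the rule except *Slc6a8*, whose 4 miR-709 arrays had the same signal. Chance is expected to mark about 5% of groups. Neither gene was called between the treatments.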

How the results depend on the processing

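*Slc7a1* and *Slc7a5* were called lower under all 20 alternatives, with log2 fold changes of -1.07 to -0.97 (adjusted p from 4.1e-05 to 0.0187) and -0.75 to -0.65 (0.00019 to 0.0320), these ranges including the methods' t-test, and 2 carrier genes were called lower under each. The number called higher, 0 in the analysis reported, was 1 with limma-trend, with genes under a mean log2 signal of 5 or of 6 left out and with median centring, each time *Slc6a12* (adjusted p = 0.0430, 0.0316, 0.0237 and 0.0414), and 0 with any array left out. With the replicate letter as a fixed block it was 1, *Slc6a9* (0.46, adjusted p = 0.0455). Deviations of arrays with the same letter correlated at 0.02, 0.02 and 0.05 for B, C and D. Controls B and D correlated best with the miR-709 array of their own letter, and control C with A. So few arrays cannot show whether the letters pair them. With the letter as a random block no count moved by over 1.5 times. Directions reversed for *Slc38a10* after quantile normalization (-0.01), after cyclic loess (-0.01) and without Cel-239b C (-0.04, the range with an array left out being -0.04 to 0.10), and, without miR-709 C and D together (chosen after seeing the data), for *Slc7a11* (-0.18), *Slc1a4* (-0.15) and *Slc3a2* (-0.03), all uncalled. The methods' t-test called 5 carrier genes lower and 6 higher at an unadjusted p under 0.05, 3 lower and 1 higher under 0.01, the threshold used for the study's lists of array genes, and after Benjamini-Hochberg adjustment 2 lower and none higher at 0.05. Over all genes, 293 were called lower and 361 higher, against 334 and 342 after quantile normalization, 331 and 312 after cyclic loess and 113 and 113 by the methods' t-test.

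In the lists, arginine, ornithine, lysine and polyamine enzymes had 0 lower (main 1) by the methods' t-test, with the fixed block and without miR-709 C and D, and 0 to 1 with an array left out. Glutamine and glutamate enzymes (2 lower, 2 higher) had 0 and 0 by the methods' t-test and without miR-709 C and D, 0 lower and 1 higher with the fixed block, 1 higher after cyclic loess, and 0 to 1 lower and 0 to 2 higher with an array left out. ATF4 response genes (2 lower, 0 higher) had 0 lower by the methods' t-test and without miR-709 C and D, 1 lower with the fixed block, 1 higher without genes under 6, and 1 to 3 lower with an array left out. Other amino acid carriers had 0 to 2 higher with an array left out, 2 without Cel-239b D. The cause was not tested. Raw scans were not analysed here, and dim probe sets (a mean log2 signal under 5) limit what 32 of the 60 carrier genes can show.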
